A study of Rattus with 6 samples.

Results

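The prostaglandin genes described here are the 10 listed by symbol for prostaglandin synthesis, transport and signalling: Ptgs1, Ptgs2, Ptges, Ptges2, Ptges3, Ptgis, Ptgds, Slco2a1, Hpgd and Ptger4. They were found by an exact match to the symbol column of the deposited count table, which held 21378 genes. Of the 10, 9 had a row and all 9 passed the filter on low counts, which they also passed in either group alone. Ptgds was not analysed here. The cells were cardiac fibroblasts of the rat, a commercial culture of the cells that lay down the heart's matrix. In 3 libraries, titled siNONO, lipofection had delivered an siRNA to Nono, which encodes a nuclear RNA- and DNA-binding protein. The other 3 libraries carry the title siCtrl, while another label says that they received an empty vector, and which of these applies is not settled here. The comparison asks how the transcriptome differs when NONO is depleted. A harvest at 48 h is stated for RT-qPCR and western blots, with no time stated for the sequenced RNA. Neither the strain nor the age of the rats is named.

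Prostaglandins are lipid signals made from arachidonic acid, which phospholipases free from membranes. The cyclooxygenases encoded by Ptgs1 (COX-1, the constitutive form) and Ptgs2 (COX-2, the inducible form) turn it into an unstable endoperoxide, and terminal synthases turn the endoperoxide into prostaglandin E2, prostacyclin, prostaglandin D2 and others. Prostaglandin E2 acts on G protein-coupled EP receptors, is taken up by the transporter encoded by Slco2a1, and is inactivated in the cytosol by the dehydrogenase encoded by Hpgd. In fibroblasts, receptors that raise cyclic AMP, among them EP4 and the prostacyclin receptor, are known for restraining activation and matrix synthesis.

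Each library held between 27792357 and 33365588 counts. A count of 0 thus allows a level of up to 0.0899 to 0.108 CPM (counts scaled to library size), or 3 counts; this limit covers counting error only. Nono was lower in every siNONO library, at 69.9 to 76.1 CPM against 233 to 247 CPM in siCtrl. All 10 fibroblast markers were detected, with 1 raised and 4 lowered, and the collagen gene Col1a1 alone had at least 413591 counts in each library. Macrophage markers were present as well: their summed level over 9 genes was 313 to 362 CPM in siCtrl and 306 to 329 CPM in siNONO. Cd68 was the highest of them, at 147, 136 and 142 CPM in siCtrl. Csf1r (-0.30 ± 0.06) and Adgre1 (-0.50 ± 0.06) were the 2 lowered ones. Summed endothelial markers were at 38.0 to 39.9 and 39.4 to 41.8 CPM, mostly from Egfl7 and Tek. Of 6 tested, 1 was raised (Tek, 0.24 ± 0.07, edgeR adjusted p = 0.0250), and Emcn was at 0 in 5 libraries and 1 count in the other. Among the fits that left out a library, only the one without siCtrl replicate 2 had a raised endothelial marker, and DESeq2 called 0. Mural markers summed to 502 to 506 CPM in siCtrl and 469 to 489 CPM in siNONO. Most of this came from Pdgfrb, at 418, 421 and 414 CPM in siCtrl. Of 7 mural markers tested, 1 was raised and 3 lowered, and Rgs5 had at most 1 count. Epicardial and mesothelial markers summed to 103 to 109 and 105 to 107 CPM, with 2 of 6 tested raised (1 in each fit that left out a library) and 1 lowered (Upk1b, -1.14 ± 0.07). Of 8 cardiomyocyte markers 5 had a row, and Ryr2 had 1 count in all 6 libraries together; their sum, 143 to 159 CPM in siCtrl and 107 to 116 CPM in siNONO, was nearly all Tnnt2. The part of other cell types in the results was not tested. In bulk RNA, fewer cells of a type and less RNA per cell cannot be told apart. No label states that replicates were separate cultures; p-values therefore measure the spread between these samples alone, and that spread may be technical.

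In siNONO cells, genes for the synthesis, uptake and breakdown of prostaglandin E2 changed in both directions. Ptges and Slco2a1 rose about as much as each other, Ptgs2 rose from a very low level, and Ptgs1 and Hpgd fell. By edgeR's quasi-likelihood test, 7 of the 9 prostaglandin genes were past an adjusted p of 0.05 (Benjamini-Hochberg over all genes tested), against 32.1% of the 14412 genes tested. Of these, 3 were raised (background 16.2%) and 4 lowered (background 15.9%). A change of at least 2-fold was called for 4 of the 9, against 1.85% of all genes. By TMM-scaled CPM, the siCtrl and siNONO libraries did not overlap for 7 of 9, against 45%. For Ptger4, among those 7, they overlapped by FPKM. The genes were chosen with earlier results of these data known, so these shares cannot show that they changed more often than other genes. The median log2 fold change of the 9 was -0.04, beside 0.00 over all genes tested, with large rises and large falls on either side. With total library size in place of TMM scaling, the share of all called genes that were raised went from 50.5% to 65.5%, and 3 of the 9 were then raised and 2 lowered. A log2 fold change above 0 means a higher level in siNONO and is given ± its standard error (SE); CPM values are scaled by TMM.

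**Figure D1:**
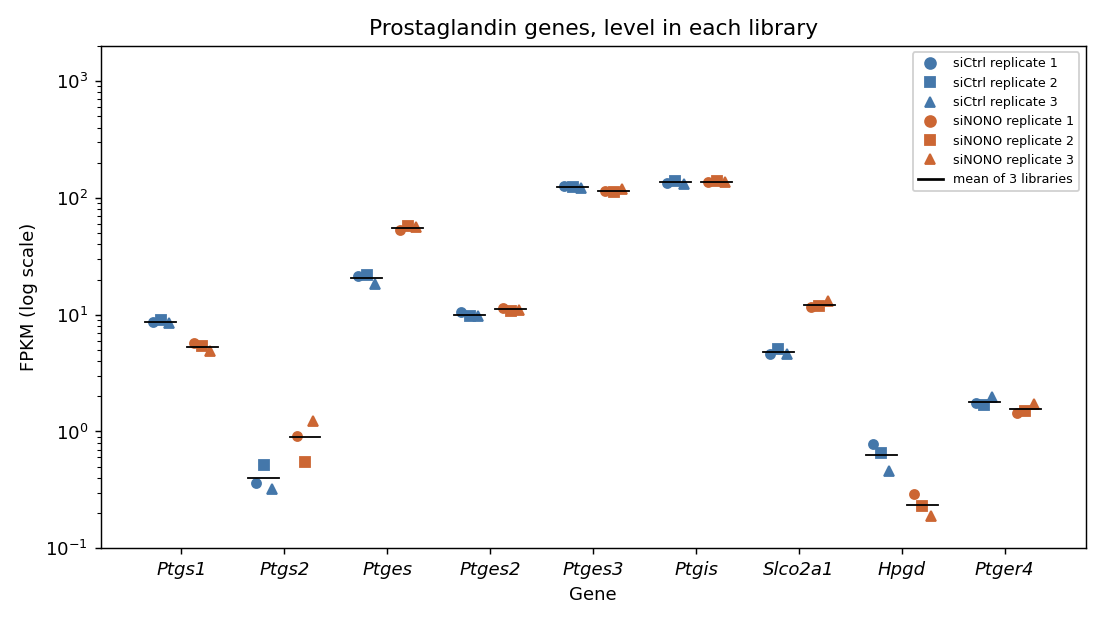
Level of each of the 9 prostaglandin genes in each library, as deposited FPKM (fragments scaled by gene length and library size) on a log axis, with siCtrl in blue, siNONO in orange and a black line at the mean of 3 libraries. Ptgis and Ptges3 lie above 100 FPKM in all 6 libraries, Ptgs2 and Hpgd lie lowest, and the groups separate most widely for Ptges, Slco2a1 and Hpgd.

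Levels of different genes can be compared only per length, so their order was read from the FPKM values. In siCtrl cells the order was Ptgis (136 ± 3.67 FPKM, SD, n = 3), Ptges3 (123 ± 2.49), Ptges (20.5 ± 1.79), Ptges2 (10 ± 0.390), Ptgs1 (8.69 ± 0.210), Slco2a1 (4.77 ± 0.316), Ptger4 (1.80 ± 0.140), Hpgd (0.633 ± 0.162) and Ptgs2 (0.400 ± 0.106). Only the neighbours Hpgd and Ptgs2 had ranges that overlapped. The prostacyclin synthase mRNA was thus the highest of the prostaglandin genes, at percentile 96.7 of genes with at least 0.1 FPKM in siCtrl, and that of COX-2 the lowest, at percentile 15.4. In siNONO cells no neighbouring ranges overlapped. There Slco2a1 (12.2 ± 0.788 FPKM) stood above Ptges2 (11.1 ± 0.280) and Ptgs1 (5.32 ± 0.421), and Ptgs2 (0.897 ± 0.340) stood above Hpgd (0.237 ± 0.0503). Between siCtrl and siNONO, Ptges went from percentile 81.1 to 91.8, Slco2a1 from 52.7 to 71.5, Ptgs1 from 65.4 to 54.2 and Hpgd from 20.3 to 9.80.

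The cyclooxygenases changed in opposite directions. Ptgs1 (gene-Ptgs1, chromosome 3) was at 27.3, 27.6 and 26.6 CPM in siCtrl replicates 1, 2 and 3 and at 17.2, 16.3 and 14.7 CPM in siNONO replicates 1, 2 and 3. Every siNONO library lay well below every control, and the control values were close together. In log2 terms Ptgs1 changed by -0.76 ± 0.06 (edgeR adjusted p = 1.26e-06), which left 59.1% of the control level (95% interval 53.6 to 65.0%).

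Ptgs2 (gene-Ptgs2, chromosome 13), the form that cytokines and growth factors induce, had 20, 30 and 21 counts in siCtrl and 54, 36 and 82 counts in siNONO. As CPM these were 0.745, 1.06 and 0.648 against 1.78, 1.08 and 2.40. The groups did not overlap, but siNONO replicate 2 lay only just above siCtrl replicate 2, and the siNONO libraries spread widely. The log2 fold change was 1.11 ± 0.30 (edgeR adjusted p = 0.0117), a 2.16-fold rise with a 95% interval of 1.38 to 3.38. Ptgs2 no longer passed in the fit that left out siCtrl replicate 3 (log2 fold change 0.96, adjusted p = 0.0530) or the one that left out siNONO replicate 3 (0.80, adjusted p = 0.0733), within a range of adjusted p from 2.56e-05 to 0.0855 over the main test and 18 alternatives.

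By FPKM, Ptgs2 made up 4.02, 5.50 and 3.61% of the summed level of both cyclooxygenase mRNAs in siCtrl and 13.7, 9.31 and 20.1% in siNONO. The means were 4.38 ± 0.995% and 14.4 ± 5.44% (SD, n = 3 each). An exact permutation test, two-sided, gave p = 0.1, which is the lowest value this design allows. COX-1 mRNA was the larger part in all 6 libraries.

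Of the genes for enzymes that make prostaglandin E2, Ptges rose, Ptges3 fell slightly and Ptges2 did not pass. Ptges (gene-Ptges, chromosome 3) encodes the inducible membrane enzyme that is coupled to COX-2. It was at 30.3, 30.3 and 25.9 CPM in siCtrl and 71.4, 78.2 and 76.4 CPM in siNONO. The lowest siNONO library was thus more than double the highest control. Ptges rose by 1.39 ± 0.06 on the log2 scale (edgeR adjusted p = 3.69e-09), or 2.62-fold with a 95% interval of 2.39 to 2.87. Of the 14412 genes tested, 43 had a larger rise.

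Ptges2 (gene-Ptges2, chromosome 3), a second membrane-associated synthase, was at 24.3, 22.1 and 22.3 CPM in siCtrl and 25.1, 24.2 and 24.3 CPM in siNONO. The groups overlapped and the gene did not pass, at 0.10 ± 0.06 on the log2 scale (edgeR adjusted p = 0.208; 95% interval -0.02 to 0.22). Among 19 alternatives it passed in 1, limma on log2(FPKM + 1) with at least 1 FPKM in 3 libraries (0.14, adjusted p = 0.0368), in a range of adjusted p up to 0.437.

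Ptges3 (gene-Ptges3, chromosome 7) encodes p23, a cytosolic protein known both as a prostaglandin E synthase and as a co-chaperone of HSP90. Its level was 237, 228 and 224 CPM in siCtrl and 206, 201 and 211 CPM in siNONO, with no overlap. The fall was small, at -0.15 ± 0.04 (edgeR adjusted p = 0.0109; 95% interval -0.24 to -0.07), at percentile 24.2 of all log2 fold changes. It did not pass with total library size (-0.10, adjusted p = 0.0633), with log2(FPKM + 1) (-0.10, 0.0691) or with log2(FPKM + 0.1) (-0.11, 0.0750). Near-identical copies of Ptges3 are annotated in the rat (Ptges3l1 and the pseudogene Ptges3-ps1), so its reads may be split between them. The reads assigned to Ptges3l1 were few, at 0.149, 0.281 and 0.154 CPM in siCtrl and 0.395, 0.391 and 0.381 CPM in siNONO. How reads shared by the copies were assigned was not tested.

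By FPKM, Ptges accounted for 13.5, 14.0 and 12.4% of the summed level of the 3 synthase mRNAs in siCtrl and for 29.5, 31.9 and 30.4% in siNONO. The means were 13.3 ± 0.831% and 30.6 ± 1.21% (SD, n = 3 each; exact permutation p = 0.1, two-sided, again the lowest possible). Ptges3 mRNA was the largest of the 3 in each library.

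**Figure D2:**
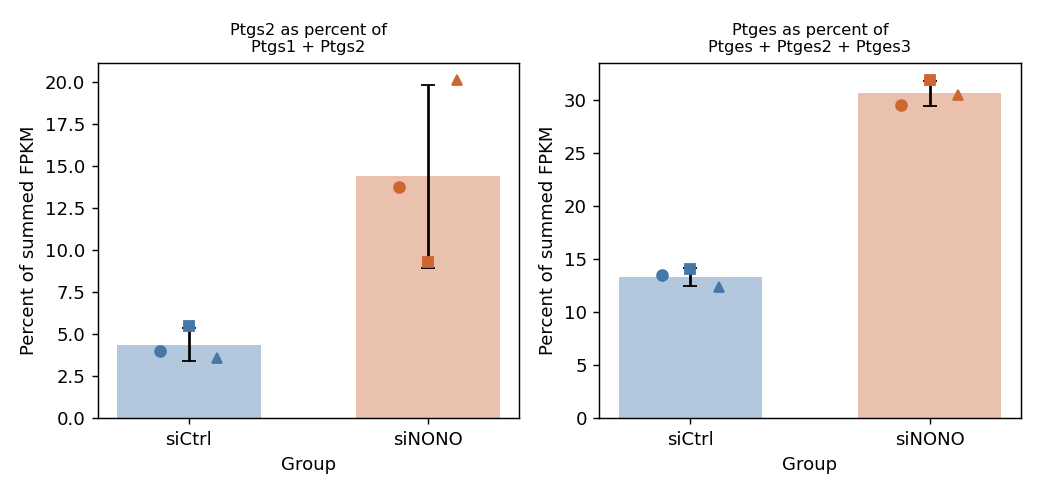
Share of the inducible enzyme's mRNA among the enzymes that make the same product, as a percent of summed FPKM in each library (points, shapes by replicate number), with bars at the mean and error bars of 1 SD (n = 3 each). Ptgs2 went from 4.38 to 14.4% of the cyclooxygenase mRNAs with a wide spread in siNONO, and Ptges from 13.3 to 30.6% of the synthase mRNAs with a narrow one.

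Ptgis, by contrast, stayed near the control level. Ptgis (gene-Ptgis, chromosome 3) encodes prostacyclin synthase, a cytochrome P450 enzyme. It was at 274, 275 and 263 CPM in siCtrl and 262, 269 and 260.4 CPM in siNONO, with overlapping groups. Its log2 fold change was -0.04 ± 0.04 (edgeR adjusted p = 0.529). Its 95% interval, -0.12 to 0.05, leaves room for a change of 0.919- to 1.03-fold. It passed in 0 of 19 alternatives.

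The uptake transporter and the inactivating enzyme, which work in sequence to clear prostaglandins, moved apart. Slco2a1 (gene-Slco2a1, chromosome 8) was at 20.8, 22.8 and 20.6 CPM in siCtrl and 50.1, 51.9 and 56.6 CPM in siNONO. All siNONO libraries lay at more than double each control. Slco2a1 rose by 1.31 ± 0.06 on the log2 scale (edgeR adjusted p = 4.29e-09), or 2.47-fold with a 95% interval of 2.26 to 2.70, and 53 genes had a larger rise.

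Hpgd (gene-Hpgd, chromosome 16) had 40, 35 and 28 counts in siCtrl and 16, 14 and 12 counts in siNONO, or 1.49, 1.23 and 0.864 against 0.527, 0.421 and 0.352 CPM. All values were low, and the groups did not overlap. The log2 fold change was -1.45 ± 0.29 (edgeR adjusted p = 0.00177), which left 36.6% of the control level with a 95% interval of 23.7 to 56.6%. Only 39 of the genes tested had a larger fall. The call held in all 17 alternatives that tested the gene.

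Ptger4 (gene-Ptger4, chromosome 2) encodes EP4, the prostaglandin E2 receptor that raises cyclic AMP. It was at 14.6, 13.7 and 16.0 CPM in siCtrl and 11.5, 11.98 and 13.5 CPM in siNONO. By these TMM-scaled values the highest siNONO library lay just under the lowest control. By FPKM the groups overlapped, at 1.76, 1.69 and 1.96 in siCtrl and 1.45, 1.50 and 1.71 in siNONO. The log2 fold change was -0.26 ± 0.08 (edgeR adjusted p = 0.0276; 95% interval -0.44 to -0.08). Ptger4 did not pass in fits that left out siCtrl replicate 3 (-0.20, adjusted p = 0.130), siNONO replicate 1 (-0.22, 0.113) or siNONO replicate 2 (-0.25, 0.0731), nor with total library size (-0.21, 0.0719). Its adjusted p ranged from 0.00769 to 0.223 over 19 alternatives.

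**Figure D3:**
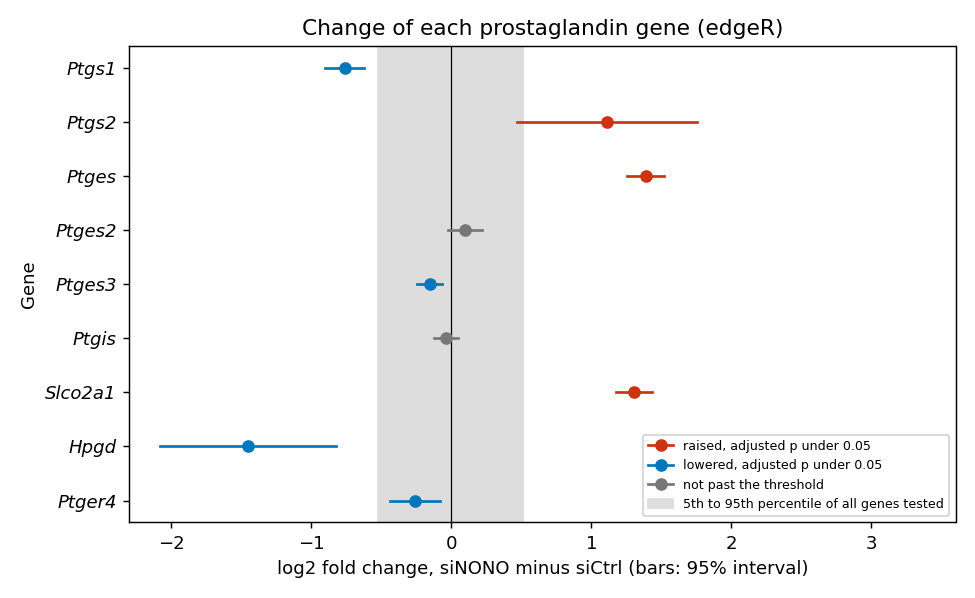
Log2 fold change (siNONO minus siCtrl, x axis) of the 9 prostaglandin genes with 95% intervals, red for raised, blue for lowered and grey for not past the threshold; the grey band spans the 5th to 95th percentile of all genes tested, -0.53 to 0.51. Ptges, Slco2a1 and Ptgs2 lie to the right of the band, Hpgd and Ptgs1 to the left, and the other 4 inside it.

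Of the 9 genes, 4 lie on chromosome 3 (Ptgs1, Ptges, Ptges2 and Ptgis), and these included a rise, a fall and both genes that did not pass. The files give no positions. In the gene order of the RefSeq assembly GRCr8, another assembly than the authors' mRatBN7.2, the next tested gene on either side was taken, a comparison added after the data were seen. Of 18 such flanking positions, 5 held a raised gene, 2 a lowered one and 11 a gene that did not pass, beside 16.2% raised and 15.9% lowered of all genes tested. The raised genes were not all beside raised members: Lcn2 (0.52 ± 0.06, edgeR adjusted p = 1.57e-05), encoding lipocalin-2, lies beside Ptges2, which did not pass, and Ttc33 (0.36 ± 0.07, adjusted p = 0.000762) beside Ptger4, which fell. The lowered ones were Atp5f1b beside Ptges3 (-0.16 ± 0.04) and Rps15al4 beside Ptger4 (-0.44 ± 0.16). Both neighbours of Ptges rose, but less than Ptges did: the homeobox gene Prrx2 by 0.46 ± 0.07 and Tor1b, a torsin of the endoplasmic reticulum, by 0.34 ± 0.07 (edgeR adjusted p = 0.000214 and 0.00121). Next to Slco2a1 lies the long noncoding RNA LOC102549824, which had 11, 18 and 10 counts in siCtrl and 37, 29 and 34 in siNONO, which is 1.19 ± 0.30 on the log2 scale (edgeR adjusted p = 0.00752). On the other side of Slco2a1, Rab6b, encoding a small GTPase of Golgi traffic, had 0.17 ± 0.10 and did not pass (adjusted p = 0.246).

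Next to Ptgs2 lies Ptgs2os, the long noncoding RNA named after it and listed in the files as LOC100911717. It had 22, 20 and 32 counts in siCtrl and 36, 35 and 43 in siNONO. The groups did not overlap, and it did not pass (0.47 ± 0.23, edgeR adjusted p = 0.140). The genes beside Ptgs1 (Mrrf and Pdcl) and Hpgd (Cep44 and Gpm6a) did not pass, with log2 fold changes of -0.10, -0.09, -0.13 and -0.44. In GRCr8, 4 of the 9 overlap another annotated gene (Ptges2, Ptges3, Slco2a1 and Ptger4). The counting's use of strand is not given in the sources used here, so reads of an overlapping partner cannot be told apart. Where such a partner had a row in the count table, at Ptges2 and Ptger4, it had at most 6 counts in a library.

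The profile over the 6 libraries was compared between genes by the root mean square difference of centred log2 CPM, a description that draws on the same libraries and is governed by the difference between the groups. Of 10086 genes with a mean of at least 5 CPM, the closest to Ptges were Lrrc3 (0.0679), Slco2a1 (0.0875) and Cgnl1 (0.104). Slco2a1, itself one of the prostaglandin genes, was thus the second closest profile to Ptges. The closest to Hpgd were Ramp1 (0.231), a subunit of the calcitonin gene-related peptide receptor, the chemokine gene Cxcl13 (0.234) and the cargo receptor gene Lman2 (0.239). Those differences were larger than the ones for Ptges. Hpgd itself was at 0.352 to 1.49 CPM, under the 5 CPM asked of the compared genes. The log2 CPM also used a prior count of 2, which shrinks low genes. The part of either in the larger differences was not tested.

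Upstream of the cyclooxygenases, genes of arachidonate supply changed in both directions. The background for this list and those below was 16.2% raised and 15.9% lowered of all genes tested. Of 17 tested genes for phospholipases and arachidonate handling, 5 were raised and 6 lowered. Their median was -0.11 beside 0.00 over all genes tested. With log2(FPKM + 1) and log2(FPKM + 0.1) 2 and 3 were lowered. Cytosolic phospholipase A2 (Pla2g4a), which releases arachidonate for the cyclooxygenases, rose from 34.6, 36.4 and 31.3 to 44.9, 44.8 and 47.5 CPM (0.42 ± 0.06, edgeR adjusted p = 7.26e-05). The gene for a secreted phospholipase A2 (Pla2g2a) rose from 1967, 1995 and 2139 to 2863, 3419 and 3145 CPM (0.63 ± 0.06, adjusted p = 3.22e-06). The desaturase gene Fads1, which makes arachidonate, rose by 0.49 ± 0.05. Named outside the rule, after their values were seen, Anxa1, whose protein annexin A1 is known as an inhibitor of phospholipase A2, rose by 0.35 ± 0.04, and the desaturase gene Fads2 by 0.25 ± 0.05.

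The largest fall in that list was that of the lysosomal phospholipase gene Pla2g15 (-0.76 ± 0.07, edgeR adjusted p = 4.35e-06). Monoacylglycerol lipase (Mgll, -0.28 ± 0.08) and the diacylglycerol lipase gene Daglb (-0.27 ± 0.07) fell as well. Both act in the endocannabinoid route, on lipids that can contain arachidonate. The call of Mgll ended without siCtrl replicate 1, siNONO replicate 2 or siNONO replicate 3 (adjusted p up to 0.0645). The remaining lowered genes, named after their values were seen, return arachidonate to phospholipids: Acsl4 (-0.27 ± 0.05), Mboat7 (-0.20 ± 0.04) and Lpcat3 (-0.11 ± 0.04, adjusted p = 0.0490).

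Of 9 tested genes for prostanoid receptors other than Ptger4, together with nuclear receptors and a receptor regulator, 2 were lowered and 0 raised (median -0.10). At an unadjusted p under 0.05 by edgeR 1 was raised (Pparg, named after its values were seen), and DESeq2 and limma-voom called 0 raised and limma on log2(FPKM + 1) called 1. Ptger3, encoding the EP3 receptor that lowers cyclic AMP, was at 6.81, 4.85 and 5.83 CPM in siCtrl and 2.53, 2.59 and 2.14 CPM in siNONO. All siNONO values were under each control, and Ptger3 changed by -1.27 ± 0.15 (edgeR adjusted p = 2.31e-05). Ptgfr, the receptor for prostaglandin F2alpha, was at 11.95, 12.2 and 11.2 CPM against 8.33, 7.83 and 8.03 CPM (-0.55 ± 0.08, adjusted p = 0.000126). Both were lowered in each of the 6 fits that left out a library.

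Ptger2, which encodes EP2, the other E2 receptor that raises cyclic AMP, was at 2.46, 2.50 and 1.98 CPM in siCtrl and 2.37, 1.78 and 2.11 CPM in siNONO. The groups overlapped (-0.14 ± 0.18, edgeR adjusted p = 0.569). The prostacyclin receptor gene Ptgir, at 3.69, 6.05 and 5.62 against 5.89, 5.09 and 5.57 CPM, also overlapped (0.10 ± 0.15, adjusted p = 0.663). Both genes were named after their values were seen. Per length, Ptger4 (1.80 ± 0.140 FPKM in siCtrl) was above Ptger3 (0.95, 0.69 and 0.83 FPKM), Ptger2 (0.36, 0.38 and 0.30) and Ptger1 (0.19, 0.22 and 0.10), so the EP4 mRNA was the most abundant of the EP receptor mRNAs in these control cells. In siNONO it was at 1.55 ± 0.138 FPKM, again above the other EP receptors.

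Of 14 tested synthases and reductases, 2 were raised and 3 lowered (median -0.12). The aldo-keto reductase gene Akr1c14 (0.34 ± 0.05) and Ptgr2, a prostaglandin reductase (0.16 ± 0.06), rose. Ptgr2 did not pass without siCtrl replicate 3, siNONO replicate 1 or siNONO replicate 3 (adjusted p up to 0.182). Ptges3l, a relative of Ptges3, fell (-0.51 ± 0.07, edgeR adjusted p = 4.68e-05), as did the glutathione transferase gene Gstm2 (-0.32 ± 0.04) and thromboxane synthase (Tbxas1, -0.29 ± 0.10). Tbxas1 lost its call without siCtrl replicate 1 or 3 or siNONO replicate 1 or 3 (adjusted p up to 0.139). Leaving out a library gave 1 to 3 raised and 2 to 5 lowered genes in this list, both highest without siCtrl replicate 2.

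Of 5 tested transporters other than Slco2a1, 0 were raised (0 at an unadjusted p under 0.05 by edgeR, and 0 by DESeq2 or limma-voom) and 3 lowered (median -0.19): Slco4a1 (-0.49 ± 0.17), Abcc1 (-0.20 ± 0.07) and the prostaglandin exporter gene Abcc4 (-0.19 ± 0.06). These calls were weak. Of the 3, 0 were lowered without siCtrl replicate 2, with total library size and in the FPKM-based fits, 1 without siCtrl replicate 3, siNONO replicate 1 or siNONO replicate 2, and 2 without siCtrl replicate 1 or siNONO replicate 3. Their adjusted p reached 0.141, 0.162 and 0.111 in the fits that left out a library.

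The lipoxygenase branch uses the same arachidonate for leukotrienes and related lipids. Its list had 3 lowered genes and 1 raised one of 10 tested (median -0.47). That list also held the epoxide hydrolase genes Ephx1 and Ephx2 and the cytochrome P450 genes Cyp2j4 and Cyp4f1, so its counts are not those of the branch alone. Lta4h, a leukotriene gene picked here with its result known, had overlapping groups (-0.01 ± 0.04, edgeR adjusted p = 0.875). Alox5ap, the helper protein of leukotriene synthesis, fell from 7.78, 6.79 and 8.74 to 3.78, 4.18 and 4.10 CPM (-0.95 ± 0.12, edgeR adjusted p = 3.20e-05). Alox15, a lipoxygenase, fell from 29.3, 25.4 and 33.2 to 16.2, 20.5 and 12.6 CPM (-0.84 ± 0.13), and the epoxide hydrolase gene Ephx1 had -0.67 ± 0.07. Alox5ap is also known from macrophages, whose markers are given above (2 of 9 lowered); their part in these falls was not tested. The raised gene, the leukotriene B4 receptor gene Ltb4r, was at under 0.4 CPM (1.17 ± 0.40). It was at 0.112, 0.176 and 0.154 CPM in siCtrl and 0.362, 0.331 and 0.322 CPM in siNONO. Whether it would pass the filter on low counts in siCtrl alone was not tested. Its place among the tested genes may therefore rest on the siNONO libraries. With no filter, and by DESeq2, the list held 0 raised genes. Ltb4r passed in 7 of the 13 alternatives that tested it. In 3 of the 6 fits that left out a library it was tested, and it did not pass in any (without siCtrl replicate 1 or 2 or siNONO replicate 1, adjusted p up to 0.128).

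**Figure D4:**
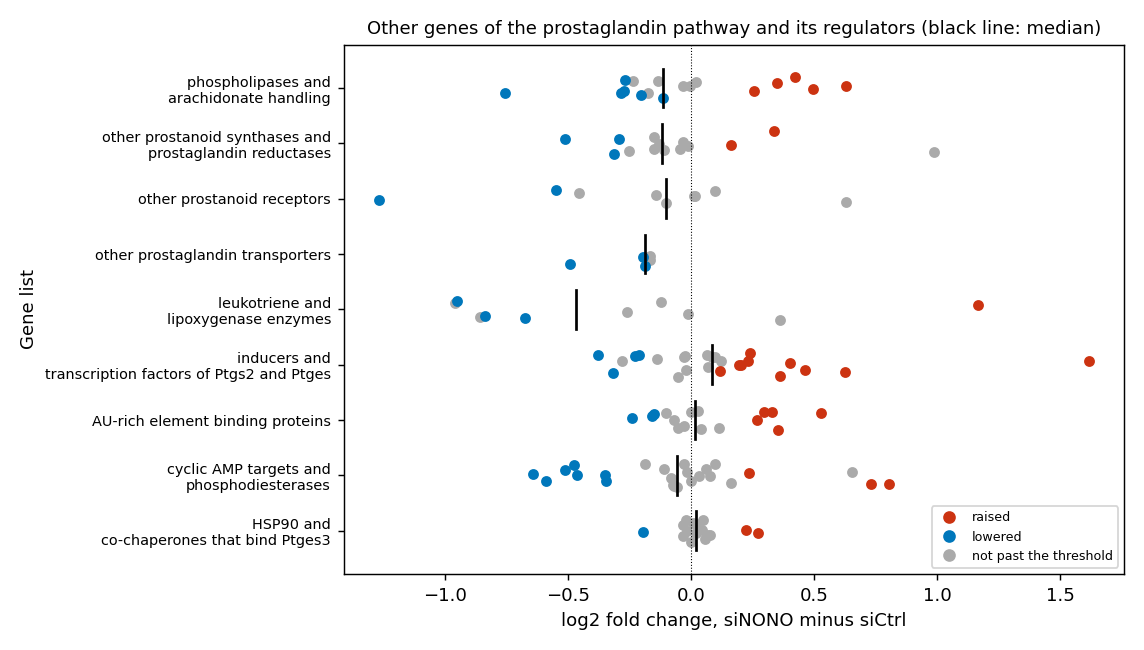
Log2 fold change (siNONO minus siCtrl, x axis) of the tested genes in 9 lists of related genes, 1 row per list with vertical scatter for display only; red is raised, blue lowered, grey not past the threshold, and the black line is the list's median. The 9 tested genes of the receptor list and the 5 transporters include 0 raised genes, and the inducers and transcription factors have 10 raised and 4 lowered. Over all genes tested, 16.2% were raised and 15.9% lowered, so few raised genes would be looked for in lists this short.

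Of 25 tested genes known to induce Ptgs2 or Ptges, or induced with them, namely cytokines, receptors, transcription factors and the enzyme gene Nos2, 10 were raised and 4 lowered (median 0.08), and leaving out a library gave 9 to 10 raised. The interleukin genes Il1b (4.21, 3.83 and 4.08 against 6.32, 6.77 and 5.60 CPM; 0.62 ± 0.11, edgeR adjusted p = 0.000878) and Il1a (0.46 ± 0.12), which encode a classic stimulus of both enzymes, rose, as did Nos2, the inducible nitric oxide synthase (1.62 ± 0.18). Of the NF-kB subunit genes, named after their values were seen, Nfkb1 (0.40 ± 0.04) and Nfkb2 (0.36 ± 0.05) rose, and Rela (0.07 ± 0.04) and Relb (0.08 ± 0.05) did not pass. The transcription factor genes Jun (-0.32 ± 0.06) and Cebpb (-0.23 ± 0.05) and the growth factor gene Tgfb1 (-0.38 ± 0.05) had the largest falls among the genes that passed. In all, 11 of the 25 did not pass. Among them were the cytokine gene Tnf (-0.28 ± 0.14) and the transcription factor gene Egr1 (-0.05 ± 0.05), both named after their values were seen.

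The Ptgs2 mRNA carries AU-rich elements, through which RNA-binding proteins set its lifetime. Of 16 tested genes listed for RNA-binding proteins, not all of them binders of such elements, 5 were raised and 3 lowered (median 0.01). Zc3h12a, which encodes the endonuclease regnase-1 (0.53 ± 0.06, edgeR adjusted p = 3.24e-05), the decay factor gene Zfp36l1 (0.35 ± 0.05) and Celf1 (0.33 ± 0.06) rose most. Celf2, whose protein is known to bind Ptgs2 mRNA, fell (-0.24 ± 0.05), as did the cold-inducible Rbm3 (-0.16 ± 0.04) and Igf2bp2 (-0.15 ± 0.05). The lowered genes numbered 0 to 1 in the 3 FPKM-based fits. Without siNONO replicate 1 only 1 was lowered and Rbm3 did not pass (adjusted p = 0.0588). Igf2bp2 did not pass without siCtrl replicate 2 or 3 or siNONO replicate 1 or 3 (adjusted p up to 0.136). Elavl1 (-0.03 ± 0.05), encoding the stabilising protein HuR, and Zfp36 (0.11 ± 0.05), encoding tristetraprolin, both named after their values were seen, did not pass.

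Some prostanoid receptors act through cyclic AMP. Of 25 tested cyclic AMP targets, cyclases, kinases and phosphodiesterases, 3 were raised and 7 lowered (median -0.06). The orphan receptor genes Nr4a1 (-0.64 ± 0.06, edgeR adjusted p = 3.20e-06) and Nr4a2 (-0.59 ± 0.11), which are rapid targets of cyclic AMP, fell, as did the growth factor gene Hgf (-0.51 ± 0.06). The third of that receptor family, Nr4a3, rose from 1.15, 0.809 and 1.39 to 2.04, 1.63 and 1.96 CPM (0.73 ± 0.22), and did not pass without siCtrl replicate 2, siNONO replicate 1 or siNONO replicate 3 (adjusted p up to 0.0832). The adenylyl cyclase gene Adcy3 (0.80 ± 0.09) and the phosphodiesterase gene Pde4d (0.23 ± 0.06) were the other raised ones. Prkaca, the catalytic subunit of protein kinase A, named after its values were seen, fell by 0.35 on the log2 scale. Leaving out a library gave 2 to 5 raised genes, 5 of them without siNONO replicate 2, and 7 to 8 lowered.

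The Ptges3 product works with HSP90 and its co-chaperones. Of 16 tested genes of that group, 2 were raised and 1 lowered (median 0.02). Fkbp5 (0.27 ± 0.05, edgeR adjusted p = 0.000451) and Hsp90aa1 (0.22 ± 0.06) rose, and the ubiquitin ligase gene Stub1 (-0.20 ± 0.05) fell. Hsp90aa1 did not pass without siNONO replicate 1 or 3 (adjusted p up to 0.0624), which left 1 raised gene. Hsp90ab1, named after its values were seen, was at 1920, 1890 and 1892 CPM in siCtrl and 1864, 1902 and 1926 CPM in siNONO, with overlapping groups (adjusted p = 0.972).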

How the data were processed

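Libraries were made with a stranded kit from poly(A)-selected RNA, per the labels' protocols. Per the submitters' processing notes, HISAT2, edgeR and genome build mRatBN7.2 were used; the sources used here give no version, counter or strand setting. The authors deposited raw read counts per gene, and FPKM values scaled by gene length and library size for 21081 genes. There were 0 columns of other samples. Samples were grouped by title.

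Counts were filtered with filterByExpr, scaled by TMM and tested with edgeR 4.0.16 (quasi-likelihood, two-sided, 4 residual degrees of freedom, Benjamini-Hochberg over 14412 genes, threshold 0.05) in R 4.3.3. SE is the absolute log2 fold change over the root of the F statistic. FPKM served to compare levels between genes. The floor of 3 counts covers counting error only. The fits were tested on simulated data. Alternatives were other scalings, filters, limma 3.58.1 and DESeq2 1.42.0 fits, a replicate block, FPKM-based limma, leaving out each library and a threshold of 0.01. Figures used matplotlib 3.10.9.

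The 10 genes and the lists were chosen with earlier results of these data known. The naming rule took all members, Nono, and up to 3 raised and 3 lowered genes per list with the largest change (or the lowest p where none passed), and the 3 closest profiles to the members that rose and fell most. A planned search of promoter motifs was not run, as no promoter sequences were used here.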

Additional observations from a re-analysis of the deposited data

How the results depend on the processing

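Of the 9 prostaglandin genes tested, Ptges, Slco2a1 and Ptgs1 kept their calls in all 19 alternatives, and Hpgd in the 17 that tested it. The raised genes numbered 2 or 3 in every alternative. The lowered genes numbered 2 in place of 4 with total library size, with each of the 3 FPKM-based fits (log2(FPKM + 1), log2(FPKM + 0.1), and at least 1 FPKM in 3 libraries) and at a threshold of 0.01. The last FPKM fit tested 7 of the 9, and a filter of 1 CPM in 3 libraries tested 8. Leaving out each library in turn gave 2 to 3 raised and 3 to 4 lowered. On the log2(FPKM + 1) scale, whose pseudocount shrinks low genes, Ptgs2 was at 0.42 (adjusted p = 0.0855) and Hpgd at -0.40; with log2(FPKM + 0.1) Ptgs2 was at 0.96 (adjusted p = 0.0695).

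Over all genes, 2338 were raised and 2292 lowered. Lowered genes numbered 1264 with log2(FPKM + 1), 1247 with log2(FPKM + 0.1), 1424 with at least 1 FPKM in 3 libraries and 1424 at a threshold of 0.01, which left 1428 raised; the cause of the FPKM difference was not tested. Leaving out each library gave 1675 to 2243 raised and 1694 to 2143 lowered genes. By CPM in place of FPKM the share of Ptges rose by 14.4 percentage points against 17.3, and that of Ptgs2 by 6.99 against 10.01, from 2.91 to 9.89%.

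Same-numbered samples did not deviate together (correlations of -0.05, -0.09 and -0.01). These values show no pairing by number, but they cannot show that same-numbered samples were set up apart. With the replicate block, 1894 genes were raised and 1863 lowered, and again 3 and 4 of the 9 prostaglandin genes. At the depth of these libraries Ptgs2 and Hpgd rest on 12 to 82 counts per library, the lowest of the 9 genes, which limits their precision.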
